A study of Homo sapiens with 18 samples.

Results

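Among the GR binding regions (GBR) that appeared when Hic-5 was depleted, 783 were no longer called when CHD9 was depleted together with Hic-5 but were still called when BRM was depleted together with Hic-5. They were chosen from 4 deposited peak lists. Each is a peak of the siHic5/siNS list that overlapped no siNS/siNS peak and no siCHD9/siHic5 peak and did overlap a siBRM/siHic5 peak, by 1 bp or more in each case. The siHic5/siNS list held 9533 GBR, of which 7059 (74.0%) overlapped no siNS/siNS peak and are called blocked GBR here. In the whole list 75.4% of GBR were absent from siCHD9/siHic5 and 34.6% were called in siBRM/siHic5. The 783 GBR were 11.1% of the blocked GBR. The other blocked GBR were 5609 absent from both double depletion lists, 268 absent from siBRM/siHic5 only and 399 called in both. The remaining 2474 siHic5/siNS GBR had a siNS/siNS peak and are called shared. Since these 4 lists chose the 783 GBR, their presence or absence in those lists is a description and not a result.

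The glucocorticoid receptor (GR) is a ligand-activated transcription factor that binds as a dimer to the glucocorticoid response element (GRE), a pair of inverted hexamers with a short spacer. Many GR sites lie in closed chromatin until remodeling enzymes act there. CHD9, a chromodomain helicase, and BRM (SMARCA2), an ATPase of the SWI/SNF complex, are such ATP-dependent remodelers. Hic-5 (TGFB1I1) is a LIM domain protein of focal adhesions that also acts in the nucleus as a coregulator of steroid receptors.

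ChIP-seq of GR was carried out in U2OS-GRα, an established osteosarcoma cell line made to express GRα stably, so that the receptor is supplied by a transgene. Cells received a pair of siRNAs for 48 h and then, in every group, the synthetic glucocorticoid dexamethasone at 100 nM for 1 h. The siRNA pairs were siNS/siNS (non-specific siRNA only), siHic5/siNS, siCHD9/siHic5, siBRM/siHic5, siCHD9/siNS and siBRM/siNS, with 2 ChIP libraries each (12 in all) and 6 input libraries. Both replicates of a group were pooled into 1 peak list, so no spread between replicates could be computed, conditions were not tested against each other, and the interval of each share below is a 95% Wilson interval for counting error only. The lists do not give the sequencing depth and do not measure how far each protein was depleted.

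The lists did not share a cutoff. The lowest −log10 q was 14.2 in siBRM/siHic5 (3383 peaks), 7.74 in siCHD9/siHic5 (2451 peaks), 8.91 in siHic5/siNS and 8.88 in siNS/siNS (2582 peaks). Membership moved with the cutoff. With 14.2 as the lowest −log10 q in all lists there were 1350 such GBR, 684 of the 783 among them. With siBRM/siHic5 reduced to its 2451 strongest peaks, as many as siCHD9/siHic5 held, 314 of the 783 remained, and among the 1000 strongest peaks of each list there were 54, of which 1 was among the 783. Differences in depth between the lists and a loss of GR therefore cannot be told apart with these lists.

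The sequences under 5 of the strongest of these GBR are given first, because they show the GR element itself where the call was absent from siCHD9/siHic5. Each is 101 bases centered on the peak summit, from GRCh38/hg38, plus strand, with the GRE nearest to the summit in capitals. A GRE was a match to the 15-base consensus in which no more than 1 of the 10 defined positions differed. These are 5 of the strongest GBR whose nearest GRE lay in full within the 101 bases.
SKI, chr1:2255465-2255565: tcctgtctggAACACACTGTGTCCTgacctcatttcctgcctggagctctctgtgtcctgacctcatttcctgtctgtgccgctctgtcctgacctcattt
EPAS1, chr2:46230943-46231043: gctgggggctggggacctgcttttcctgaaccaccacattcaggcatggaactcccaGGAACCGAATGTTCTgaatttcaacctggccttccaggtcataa
BCAS3, chr17:60941028-60941128: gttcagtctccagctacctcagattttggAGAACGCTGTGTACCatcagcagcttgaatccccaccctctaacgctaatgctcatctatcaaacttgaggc
NPR2, chr9:35790294-35790394: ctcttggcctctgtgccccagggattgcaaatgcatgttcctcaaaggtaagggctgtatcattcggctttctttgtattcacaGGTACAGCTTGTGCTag
PDZD8, chr10:117454406-117454506: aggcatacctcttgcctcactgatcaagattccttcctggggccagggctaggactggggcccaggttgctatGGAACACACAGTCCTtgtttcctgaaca

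The GRE of the GBR near NPR2, the receptor for C-type natriuretic peptide, matched at all 10 defined positions, and those of the other 4 GBR had 1 mismatch. The GRE centers lay 14 bp (EPAS1 and BCAS3) to 41 bp (NPR2) from the summit. The SKI GBR held 7 GRE and 15 ETS matches in the 1 kb around the summit, the most GRE matches of the 783 GBR. The SKI sequence above is repetitive, since the run tgtcctgacctcattt recurs in it when capitals are ignored. The matches at SKI may therefore be copies within a repeat and need not be independent sites. Whether reads were placed correctly there was not tested.

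AP-1 sites, bound by FOS and JUN dimers, were the motif by which these GBR differed from the other blocked GBR in 1-kb windows, as described below, while in 200-bp windows C/EBP, ETS and the single GR hexamer also passed in some contrasts. To show them, the 3 strongest GBR with an AP-1 match near the summit are given with AP-1 in capitals, chosen after these values were seen. The pattern was TGACTCA, which reads TGAGTCA on the other strand.
SMOX, chr20:4102440-4102540: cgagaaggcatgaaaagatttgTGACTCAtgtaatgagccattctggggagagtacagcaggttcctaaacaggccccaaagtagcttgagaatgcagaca
TNS4, chr17:40484606-40484706: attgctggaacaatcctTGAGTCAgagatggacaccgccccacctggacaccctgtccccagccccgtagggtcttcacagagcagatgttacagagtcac
BCAR1, chr16:75238338-75238438: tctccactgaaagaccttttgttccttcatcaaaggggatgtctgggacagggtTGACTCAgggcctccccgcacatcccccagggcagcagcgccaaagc

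The GBR near SMOX (spermine oxidase) lay 46.3 kb upstream of the transcription start site (TSS), ranked 1092 in the siHic5/siNS list and held 1 AP-1 and 1 GRE match. The GBR in an intron of TNS4, a tensin of focal adhesions, also held both. The GBR in an intron of BCAR1, the focal adhesion scaffold p130Cas, held an AP-1 match 7 bp from its summit and no GRE. The GBR shown with sequences held a GRE, AP-1 or both because they were chosen for such a match. They therefore cannot show how often strong GBR held either motif. Strong GBR with neither motif also occurred, such as the one near RHOB (rank 365). The 215 GBR with neither had a median siHic5/siNS rank of 3178. The median was 3198 for GBR with both, 3243 with a GRE alone and 3831.5 with AP-1 alone.

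How strong the 783 GBR were was set in part by their selection and is given as a description. In the siHic5/siNS list their −log10 p ranged from 12.1 to 147 with a median of 29.6. The median was 17.2 for blocked GBR absent from both double depletion lists, 24.8 for those absent from siBRM/siHic5 only, 38.0 for those called in both and 54.7 for shared GBR. The 783 GBR therefore stood above the bulk of blocked GBR and below those that survived both depletions. By rank, 575 (73.4%) stood in the stronger part of the siHic5/siNS list, above its middle. In the siBRM/siHic5 list, which is shorter and has a higher cutoff, the median rank of their peaks was 2645 of 3383, the best was 563, and 86 (11.0%) stood above the middle of that list. The −log10 p of these siBRM/siHic5 peaks ranged from 17.8 to 74.7 with a median of 22.4. Since both lists took part in the choice and do not share a cutoff, the positions in them are not comparable as a change in GR.

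**Figure D1:**
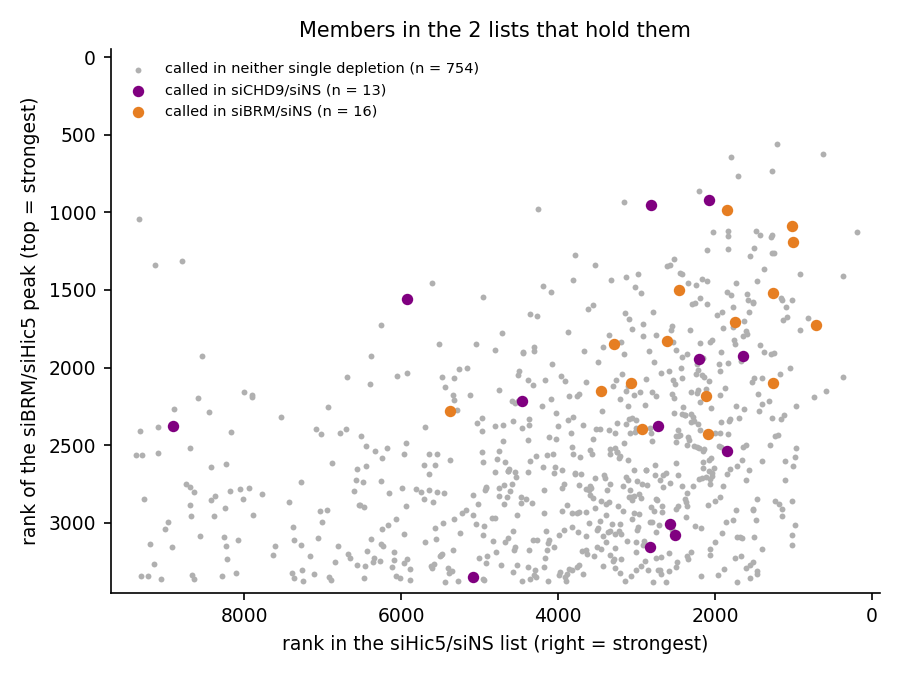
Rank of each of the 783 GBR in the siHic5/siNS list (horizontal axis, strongest at the right) and of its overlapping siBRM/siHic5 peak (vertical axis, strongest at the top). Points gather at the right and at the bottom, with 575 above the middle of the siHic5/siNS list and 86 above the middle of the siBRM/siHic5 list, and colored points mark the 13 GBR also called in siCHD9/siNS and the 16 also called in siBRM/siNS.

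The share of blocked GBR absent only from siCHD9/siHic5 did not follow strength in one direction. In 10 groups of equal size from the strongest to the weakest siHic5/siNS GBR, it was 20% in the first (10 of 50; 11.2 to 33.0%), 40% in the second (126 of 315; 34.7 to 45.5%) and 29.3% in the third (171 of 584). It then fell through 21.2, 13.7, 8.55 and 5.64% to between 2.79 and 3.17% in the last 3 groups. In the strongest group 36 of 50 blocked GBR (72%) were called in both double depletion lists, and in the weakest group 889 of 937 (94.9%) were absent from both. The 783 GBR thus filled the range between the strong GBR that kept their call and the weak ones that lost it in both lists.

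**Figure D2:**
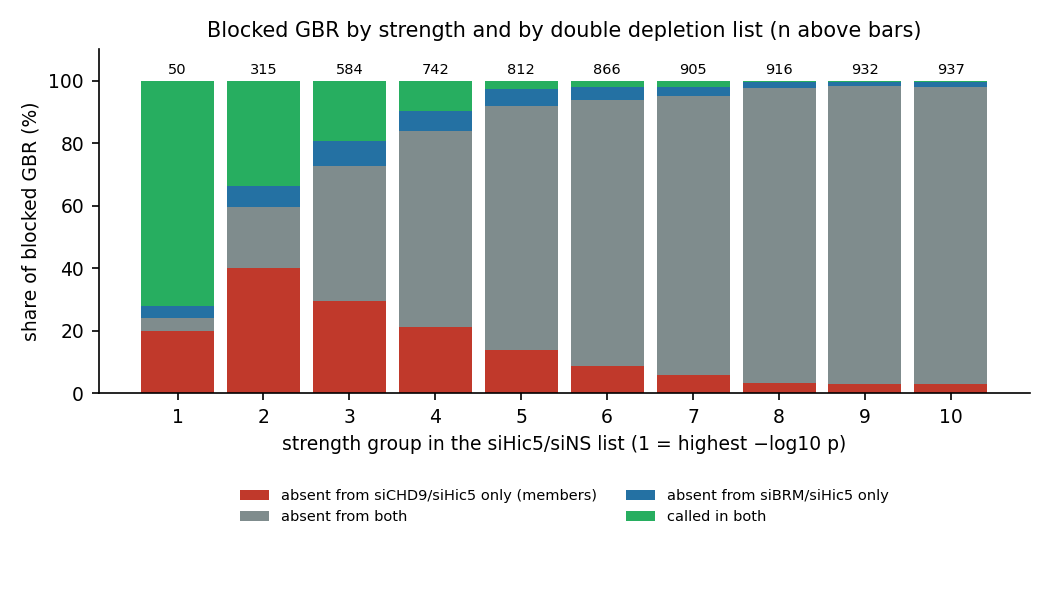
Share of blocked GBR in each of 10 strength groups (1 = highest −log10 p in siHic5/siNS) by their presence in the double depletion lists, with the number of blocked GBR above each bar. The share absent from siCHD9/siHic5 only is largest in group 2, at 40%, and 2.99% in group 10.

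Overlap with a siBRM/siHic5 peak was required by the rule, and how close these peaks lay is given as a description. The siBRM/siHic5 summit lay a median of 23 bp from the siHic5/siNS summit and within 50 bp at 642 GBR (82.0%). The overlap was 48 to 1500 bp with a median of 423 bp, and 782 separate siBRM/siHic5 peaks accounted for the 783 GBR. The nearest siCHD9/siHic5 peak lay a median of 218 kb away and within 1 kb of 14 GBR. These near cases mark the edge of the rule. A GBR in an intron of CPT1A (nearest TSS TESMIN) was inside it with 48 bp of overlap with a siBRM/siHic5 peak and a siCHD9/siHic5 peak 123 bp away. The next smallest siBRM/siHic5 overlaps were 224 bp near TOX2 and 250 bp near USP24. Outside the rule, GBR near RNF220 and RNF144A had some of the smallest overlaps with a siCHD9/siHic5 peak. These were 246 and 262 bp, well past the 1 bp that excluded a GBR. Just outside were GBR near MN1, CBFA2T3 and SH3BP4, whose nearest siBRM/siHic5 peaks lay 50, 67 and 68 bp away. By peak height, the weakest siBRM/siHic5 peaks inside the rule were at FGGY (−log10 p 17.8), PAQR8 and NACA, and the weakest siCHD9/siHic5 peaks that kept a GBR outside it were at STAC2, SMAD7 and ADRA1D (11.5 each). The latter values are under the lowest −log10 p of the siBRM/siHic5 list, 17.8.

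The strongest of the 783 GBR was in an intron of SKI, a repressor of SMAD signaling (chr1:2255004-2256421, 27.2 kb from the TSS). It ranked 193 in siHic5/siNS with −log10 p of 147 and 1127 in siBRM/siHic5 with 44.9, and the nearest siCHD9/siHic5 peak lay 1046 kb away. The SKI sequence given above is repetitive, so the placement of reads there is uncertain. The second stood 22.3 kb upstream of RHOB, a small GTPase of endosomes and actin (chr2:20424254-20425176), at rank 365 and 1412. The third was in an intron of ANKRD11, a chromatin regulator (chr16:89316034-89316703), at rank 366 and 2058, with 6 ETS matches and no GRE. The lists differ in length and cutoff and both chose these GBR, so the ranks describe each list and not a change in GR.

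The next strongest stood near genes of varied function. A GBR near DCSTAMP, a transmembrane protein of osteoclast fusion (chr8:104360963-104361789), ranked 583. One in an intron of SEPTIN9, a cytoskeletal GTPase (chr17:77363870-77364535), ranked 618 in siHic5/siNS and 625 in siBRM/siHic5. One far upstream of SPATA31A5 (chr9:60523418-60524297) ranked 714, and since SPATA31A genes are near-identical copies the placement of reads there is uncertain. GBR at 66.4 kb upstream of EPAS1, the hypoxia factor HIF-2α (chr2:46230602-46231224, rank 732, 3 GRE), 6.69 kb from SNAI1, a repressor of epithelial genes (chr20:49989192-49990585, rank 814, 4 ETS and no GRE), and 0.118 kb upstream of OLAH, a thioesterase of fatty acid synthesis (chr10:15043578-15044093, rank 918), followed. The last of the 12 strongest were in KCNK9, a potassium channel (chr8:139701165-139701682, rank 922), near KLHL38 (chr8:123671086-123672049, rank 969) and in NINJ2, a cell surface adhesion protein (chr12:627714-628594, rank 970). Of these 12, only those near SKI, EPAS1, OLAH and KLHL38 held a GRE.

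Except for the SEPTIN9 GBR, the strongest siBRM/siHic5 peaks of the group were at other GBR. They were in an intron of ODF3L2 (chr19:472223-472853), with −log10 p of 74.7 and rank 563, then the SEPTIN9 GBR at 625. GBR upstream of GPC1, a cell surface heparan sulfate proteoglycan (chr2:240372002-240372937, rank 646), in TTC16 (chr9:127720753-127721395, rank 732), near BLOC1S4, a subunit of a lysosome biogenesis complex (chr4:6724365-6725101, rank 767), and in PTK7, a Wnt pathway receptor (chr6:43126181-43126674, rank 863), followed. Their siHic5/siNS ranks were 618 to 2202. The GPC1 GBR had a siCHD9/siHic5 peak 1.56 kb away.

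The siCHD9/siNS and siBRM/siNS lists, where Hic-5 was present, were not used to choose the GBR. Of the 783, 13 (1.66%; 0.973 to 2.82%) were called in siCHD9/siNS, against 14.5% of all siHic5/siNS GBR and 2.04% of all blocked GBR. In siBRM/siNS 16 (2.04%; 1.26 to 3.29%) were called, against 13.1% of all siHic5/siNS GBR and 0.524% of all blocked GBR. None was called in both (0 of 783, an upper limit of 0.488%), and 754 were called in neither. Low shares follow in part from the rule, since no siNS/siNS peak could overlap these GBR. The siCHD9/siNS share was near that of all blocked GBR. The siBRM/siNS share was above that of all blocked GBR with the lists as deposited. That excess may also follow in part from the rule, which required a siBRM/siHic5 call and so left out most weak blocked GBR. The 16 include GBR near SPATA31A5, where the placement of reads is uncertain. With one q cutoff for all lists 1 of 1350 such GBR was called in siBRM/siNS. With −log10 q of at least 20 it was 0 of 1063. In siCHD9/siNS the counts were then 7 and 3. Both cutoffs also shortened the siBRM/siNS list, where the peaks at the 16 GBR had −log10 p of 11.3 to 15.4. With siBRM/siHic5 reduced to the size of siCHD9/siHic5 the siBRM/siNS count was 16 of 314. Among the 1000 strongest peaks of each list it was 15 of 54. The share of all blocked GBR was not computed under these settings, so they cannot show whether the excess held. Of the blocked GBR called in both double depletion lists, 105 of 399 (26.3%) were in siCHD9/siNS and 15 (3.76%) in siBRM/siNS. Of those absent from siBRM/siHic5 only, 19 of 268 (7.09%) and 2 (0.746%) were. Of those absent from both, 7 of 5609 (0.125%) and 4 (0.0713%) were. The siCHD9/siNS share of the 783 lay between the last 2 classes, and each of these shares rests on 1 pooled list.

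Strong examples in siBRM/siNS were the SPATA31A5 GBR (rank 1014 of 1278), GBR in an intron of KCNQ3 (nearest TSS HHLA1, rank 962) and near OLFML2B, an extracellular matrix protein (rank 994), PRR16 (rank 1152), SKOR2, a SKI family corepressor (rank 1237), one in an intron of CCNY (nearest TSS GJD4, rank 1030) and one in PPARGC1B, a coactivator of mitochondrial genes (rank 808). In siCHD9/siNS they were near HELZ2, a helicase that coactivates nuclear receptors (rank 1401 of 1415), TLR2, a Toll-like receptor (rank 1267), and GIP, an incretin hormone (rank 1329). These 10 stood in the weaker part of their single depletion list. The HELZ2 GBR had a siCHD9/siHic5 peak 1.48 kb away.

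The few GBR called in one or the other single depletion list differed in motif counts, given here as a description of small numbers. Of the 13 called in siCHD9/siNS, 9 held AP-1 and 5 held a GRE. Of the 16 called in siBRM/siNS, 4 held AP-1 and 12 held a GRE. Among the 754 called in neither, 304 (40.3%) held AP-1 and 371 (49.2%) a GRE.

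Sequence played no part in the choice of the GBR, and the motifs were compared by logistic regression over all 9533 siHic5/siNS GBR. The fit had GC content and the rank of −log10 p as covariates and gave 30 tests, of 10 motifs against 3 blocked classes, with Benjamini-Hochberg adjustment. The unit is the GBR, so it compares sites and not replicated conditions. Only AP-1 passed an adjusted p of 0.05, and it did so in all 3 contrasts. An AP-1 match stood within 1 kb at 317 of the 783 GBR (40.5%; 37.1 to 44.0%), against 37.1% (36.1 to 38.0%) of all siHic5/siNS GBR and 36.5% of shared GBR, so the share was near that of the whole list and the contrasts are with the other blocked classes. The share was 34.4% (33.1 to 35.6%) where the call was absent from both double depletion lists, an odds ratio of 1.33 for the 783 GBR (95% interval 1.13 to 1.57, adjusted p = 0.0054, n = 783 and 5609 GBR). It was 57.1% (51.1 to 62.9%) where the call was absent from siBRM/siHic5 only, an odds ratio of 0.537 (0.405 to 0.712, adjusted p = 2.29e-04, n = 783 and 268 GBR). It was 58.1% (53.2 to 62.9%) where the call was kept in both, an odds ratio of 0.502 (0.392 to 0.642, adjusted p = 1.235e-06, n = 783 and 399 GBR). AP-1 was therefore more frequent at these GBR than at those lost in both lists, and less frequent than in either class that kept its siCHD9/siHic5 call. The contrast with GBR absent from siBRM/siHic5 only no longer passed (odds ratio 0.52, adjusted p = 0.105) with a common q cutoff (n = 1350 and 52 GBR). Windows 5 kb to either side of the 783 summits held AP-1 in 14.9%.

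**Figure D3:**
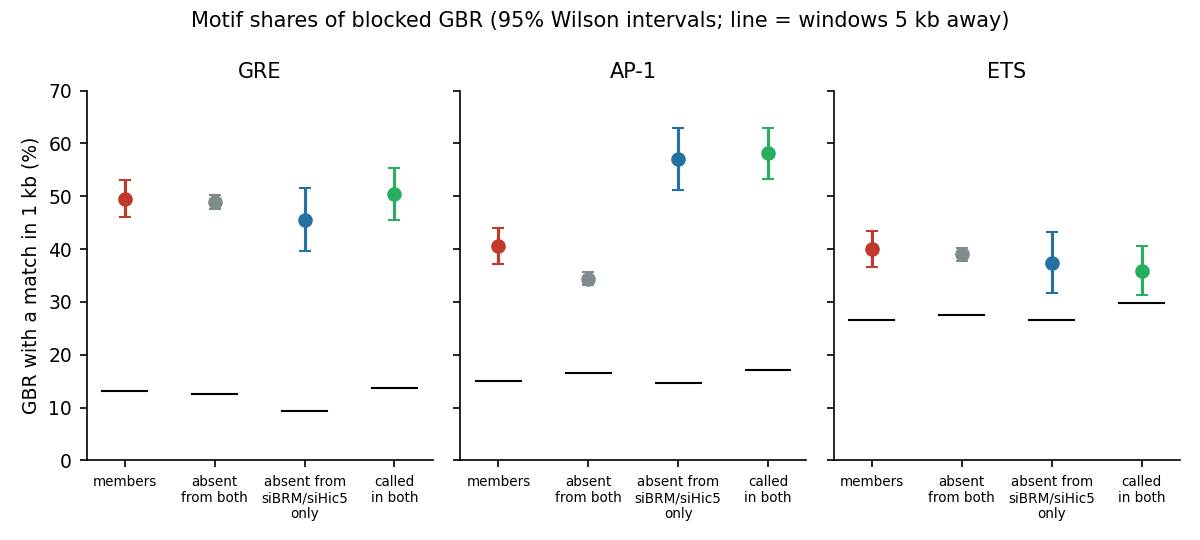
Share of blocked GBR with a GRE, AP-1 or ETS match within 1 kb of DNA centered on the summit, by presence in the double depletion lists; bars are 95% Wilson intervals for counting error and the black lines give the share in windows 5 kb to either side. GRE and ETS shares lie close together across the 4 classes, while AP-1 is 40.5% at the 783 GBR and 57.1 and 58.1% in the classes called in siCHD9/siHic5.

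The AP-1 order of the 783 group, GBR absent from both and GBR called in both held in each range of strength that was looked at. Intervals were wide where GBR were few. Among the 1906 strongest siHic5/siNS GBR, AP-1 was at 39.7% of the 783 group (54 of 136), at 22.2% of blocked GBR absent from both (14 of 63) and at 58.5% of those called in both (83 of 142). At ranks 1907 to 3813 these shares were 39.0, 32.9 and 58.1%. At ranks 3814 to 5719 they were 38.4, 34.1 and 62.5%. In these first 3 ranges the intervals of the 783 group and of GBR absent from both overlapped. At ranks 3814 to 5719 they were 31.7 to 45.6% and 31.7 to 36.7%. The weakest range, ranks 5720 to 9533, had 47.8, 35.0 and 51.6%, and there the first and last intervals overlapped widely. The share at the 783 GBR changed by under 2 percentage points over the first 3 ranges, that is down to a −log10 p of 19.0. From the strongest to the weakest range, GBR absent from siBRM/siHic5 only had 58.3, 48.9, 60.8 and 63.4%. Their intervals overlapped those of the 783 group except at ranks 3814 to 5719. In the weakest range their share was above that of GBR called in both.

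**Figure D4:**
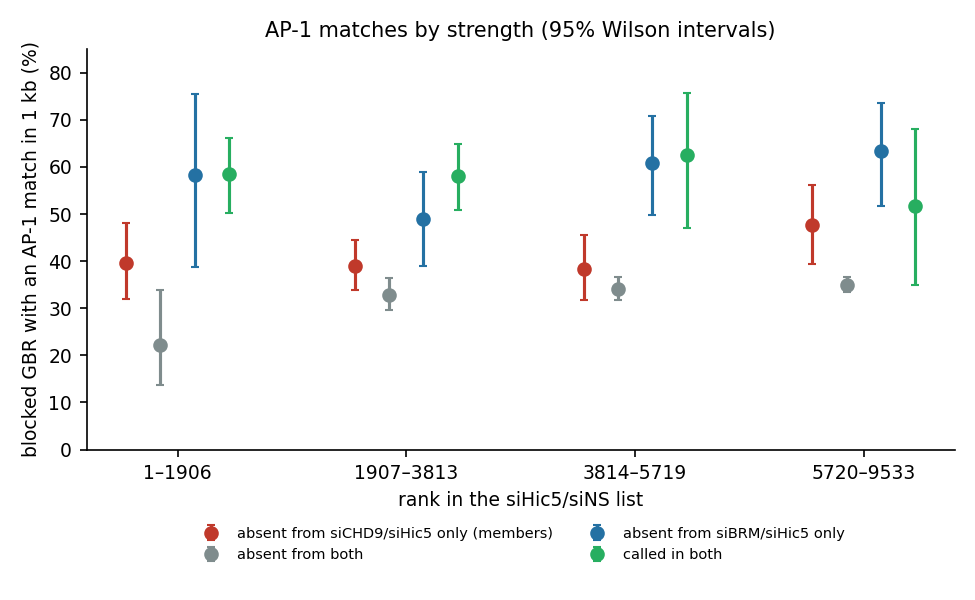
Share of blocked GBR with an AP-1 match within the 1-kb window in 4 ranges of rank in the siHic5/siNS list, by presence in the double depletion lists, with 95% Wilson intervals for counting error. The 783 GBR stay between 38.4 and 47.8%, above the class absent from both and below the class called in both in each range.

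The same order was seen close to the summit, in 200-bp windows, where AP-1 was at 22.1% of the 783 GBR and at 17.2, 38.1 and 39.3% of the classes absent from both, absent from siBRM/siHic5 only and called in both. The odds ratios there were 1.45, 0.475 and 0.431, each past the threshold. Among shared GBR absent from siCHD9/siHic5 only, which had a siNS/siNS peak, AP-1 was at 128 of 520 (24.6%; 21.1 to 28.5%) in 1 kb. That comparison is a description, with no test.

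**Figure D5:**
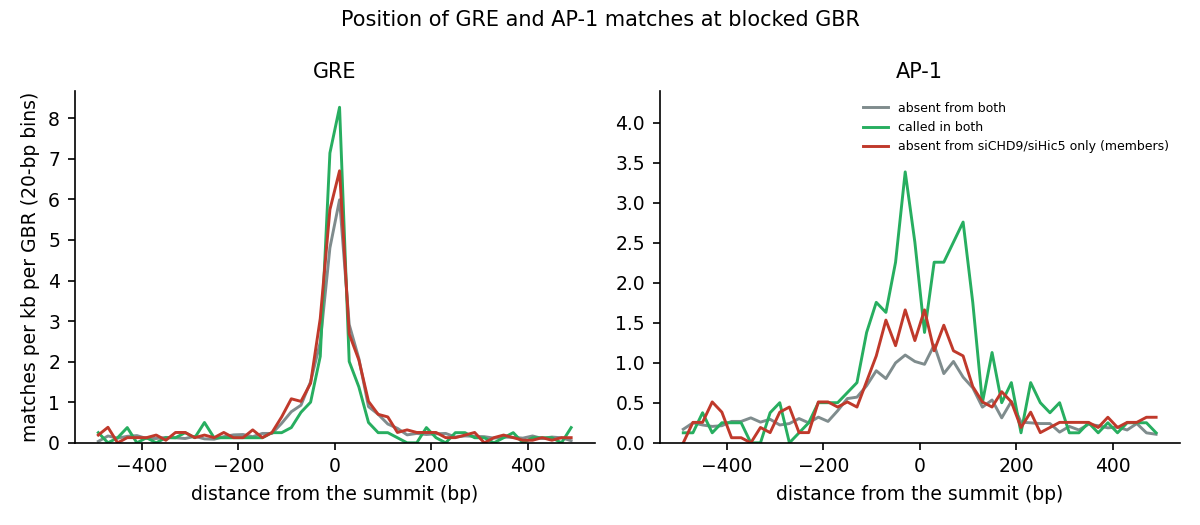
Matches per kb per GBR in 20-bp bins against distance from the summit, for GRE (left) and AP-1 (right), at the 783 GBR, at blocked GBR absent from both double depletion lists and at those called in both. GRE peaks narrowly at the summit in all 3 classes, while AP-1 spreads over about 100 bp to either side and is highest where the call was kept in both.

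GRE, the element GR itself recognizes, did not set the 783 GBR apart in the fit. A GRE was within 1 kb at 388 of them (49.6%; 46.1 to 53.0%), against 48.8% of blocked GBR absent from both, 45.5% of those absent from siBRM/siHic5 only and 50.4% of those called in both. The odds ratio against the class absent from both was 0.85 (0.723 to 0.998, adjusted p = 0.281, n = 783 and 5609 GBR), and its direction turned without covariates (1.03), with GC content alone (1.10) and with no mismatch allowed (1.06). All siHic5/siNS GBR had a GRE at 53.6%, shared GBR at 66.9%, and shared GBR absent from siCHD9/siHic5 only at 64.4%. Windows 5 kb from the 783 summits held one in 13.1%, and 3.30% of 35116 RefSeq promoters of 300 bases did, against 45.1% of the 783 GBR in the same length.

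The 388 GBR with a GRE were varied in its letters. The nearest match lay a median of 20 bp from the summit, 76 (19.6%) matched at all defined positions and 90 GBR held 2 or more matches. The 15-base matches were 383 different sequences. Each match was read on the strand whose second hexamer was nearer to TGTTCT, and this hexamer read TGTTCT in 98 (25.3%). How often the defined positions held their letter is set by the match rule. Of the 5 undefined positions, position 13, counted from 1 at the left end, was T in 48.7%, and the most frequent letter at the other 4 was in 31.2 to 34.0%. Position 13 lies in the second hexamer. The choice of strand raises its T share and the TGTTCT share, so neither is a result.

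GRE and AP-1 were found both together and apart. Of the 783 GBR, 137 held both, 251 a GRE without AP-1, 180 AP-1 without a GRE and 215 neither. GBR with neither had a GC content of 51.6 ± 10.0% (SD over GBR) and lay a median of 40.7 kb from a TSS, those with AP-1 alone 48.9 ± 8.41% and 56.1 kb. Their median ranks in siHic5/siNS were 3178 and 3831.5. With ETS added, 662 (84.5%) held at least 1 of the 3 motifs.

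ETS matches, the sites of a large family of winged helix factors, were at 313 of the 783 GBR (40.0%), and at 39.0, 37.3 and 35.8% of the classes absent from both, absent from siBRM/siHic5 only and called in both. The odds ratios were 0.879 (adjusted p = 0.281), 1.01 (adjusted p = 0.953) and 1.22 (adjusted p = 0.281), with n = 783 GBR. ETS was at 37.9% of all siHic5/siNS GBR and 35.0% of shared GBR, so the 40.0% was near the share of the whole list. Windows 5 kb away held ETS in 26.6%, and promoters in 18.5% against 19.2% of the 783 GBR at 300 bases. In 200-bp windows the first contrast passed, with 13.9% against 15.2% and an odds ratio of 0.694 (adjusted p = 0.006802, n = 783 and 5609 GBR). The pattern was CAGGAANN or CCGGAANN, ending in A or G and then C or T.

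The other motifs gave no call at 1 kb. These were RUNX (TGTGGTT, 21.2% of the 783 GBR), TEAD (ACATTCC or GCATTCC, 34.1%), C/EBP (TTGCNNAA, 36.1%), CTCF (13 bases, by its name, 0.383%), STAT (TTCCNGGAA, 3.58%), the GC box (GGGGCGG, 14.7%) and the single GR hexamer AGAACA (65.4%), which can lie within a GRE. All were read on both strands. All siHic5/siNS GBR held them at 1 kb in 20.9, 34.7, 40.7, 0.336, 4.11, 13.9 and 67.2%. The 783 GBR were near these shares for all but C/EBP. Promoters held them in 4.27, 6.64, 10.5, 0.205, 1.15, 30.8 and 14.8%, and the 783 GBR at 300 bases in 8.56, 18.9, 11.0, 0, 1.79, 7.02 and 42.1%. No other GBR were counted at 300 bases, so a difference from promoters cannot be read as particular to the 783 GBR. At 200 bp C/EBP was less frequent at the 783 GBR (7.15%) than where the call was absent from both (11.8%, odds ratio 0.597, adjusted p = 0.003282, n = 783 and 5609 GBR) or from siBRM/siHic5 only (16.4%, odds ratio 0.458, adjusted p = 0.001976), and the hexamer more frequent than where it was kept in both (35.8 against 28.3%, odds ratio 1.65, adjusted p = 0.001976). Those windows gave 27 tests, since CTCF could not be fitted.

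The 783 GBR stood mostly away from promoters, as siHic5/siNS GBR did in general. The median distance to a protein-coding TSS was 47.7 kb. Within 10 kb were 139 (17.8%; 15.2 to 20.6%), against 17.7% of all siHic5/siNS GBR, and within 1 kb 35 (4.47%). Summits were intergenic at 431 GBR (55.0%), in introns at 319 (40.7%), in coding exons at 20 (2.55%) and in UTRs at 13 (1.66%). Coding exons held 1.14% of blocked GBR absent from both and 1.30% of all siHic5/siNS GBR. Mean GC content of the 1-kb windows was 49.1 ± 8.81% (SD over GBR) against 47.3 ± 8.39% for blocked GBR absent from both. The nearest shared GBR lay a median of 164 kb away.

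A few GBR did stand at start sites. Among the closest summits was one 0.075 kb upstream of the TSS of VASP, an actin regulator of focal adhesions. Others were at CTNNB1, which encodes β-catenin (0.093 kb, also called in siCHD9/siNS), CCDC97 (0.093 kb), FLNC, a muscle filamin (0.113 kb), MFAP4, a microfibril glycoprotein (0.144 kb), and RNASE12 (0.144 kb), besides OLAH. Their siHic5/siNS ranks ran from 918 (OLAH) to 8687 (CCDC97).

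The distribution over chromosomes followed that of blocked GBR with some spread. Chromosome 1 held 74 of the 783, chromosome 2 held 59 and chromosome 7 held 55. As a share of the blocked GBR of the chromosome, the highest was 18.0% on chromosome 19 (29 of 161; 12.8 to 24.7%) and the lowest 5.19% on chromosome 13 (7 of 135; 2.53 to 10.3%), around 11.1% for all. These intervals do not overlap, but they are the extremes of 23 chromosomes.

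Genes were assigned where a GBR lay in the transcript or within 50 kb of its TSS, a rule that favors long genes. By it 851 of 20007 protein-coding genes (4.25%) had at least 1 of the 783 GBR, and 26.2% had a blocked GBR of any class. Among genes with a blocked GBR, 16.2% had at least 1 of the 783. Of 33 classical glucocorticoid target genes, 5 had one, and 22 had a blocked GBR. The GBR were in introns of TSC22D3 (GILZ, an anti-inflammatory leucine zipper protein, rank 1819), HIF3A (an inhibitor of hypoxia signaling, rank 1838) and FOXO3 (a forkhead factor of stress response, rank 2246), 4.57 kb upstream of BIRC3 (an inhibitor of apoptosis, rank 2084, 1 GRE) and 41.5 kb upstream of PCK1 (a gluconeogenic enzyme, rank 2079, 2 GRE). The HIF3A GBR had a shared GBR at 1.19 kb and a siCHD9/siHic5 peak at 1.30 kb. At HIF3A the control list thus held GR nearby.

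Genes of cell adhesion and matrix, a known place of Hic-5 function, were represented by 6 of 43 integrin and focal adhesion genes, of which 30 had a blocked GBR. That is 20% of those with a blocked GBR, near the 16.2% of all such genes. These were BCAR1 (rank 1378), TNS1 (a tensin, rank 1669), ITGA5 (the fibronectin receptor α subunit, rank 2490), ITGB1 (its β subunit, rank 2721, 2 GRE), ZYX (zyxin, 0.178 kb upstream of the TSS, rank 3955) and LPP (a zyxin relative, rank 5079). Of 32 collagen genes 3 had one, COL13A1 (rank 1974, with 3 AP-1 and 1 GRE), COL18A1 (2 GBR, the stronger at rank 2151) and COL5A1 (rank 5438). Of 42 TGF-β and BMP signaling genes 4 had one, with SKI followed by SMAD6, an inhibitory SMAD (rank 1653), TGFBR3, the co-receptor betaglycan (rank 1721), and TGFB1, the ligand, whose GBR is the one at the TSS of CCDC97. Of 30 osteoblast differentiation genes only PTH1R, the parathyroid hormone receptor, had any, with 2 GBR, the stronger 4.18 kb upstream (rank 1425, 2 GRE). Of the genes with a blocked GBR, 15% of the collagen, 23.5% of the TGF-β and BMP and 10% of the osteoblast list had any. These shares lie around the 16.2% of all such genes.

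Among transcription factor genes, 2 of 26 ETS genes had one, ERF (a repressor, rank 2040) and SPI1 (PU.1, rank 7025), as did 2 of 17 AP-1 genes, JUND (0.323 kb upstream of the TSS, rank 2275) and FOSB (rank 4321, the GBR at the VASP TSS), and 1 of 15 RUNX, TEAD and C/EBP genes, RUNX3 (rank 4056). Of 36 cytokine and inflammation brake genes 3 had one, ZFP36 (tristetraprolin, which destabilizes cytokine mRNAs, rank 1558), LIF (a cytokine, 2 GBR, the stronger at rank 2407) and ZFP36L1 (rank 4303). Of 26 growth arrest and survival genes 3 had one, BIRC3, BBC3 (PUMA, rank 3076, called in siBRM/siNS) and GADD45A (rank 6920). Of the circadian clock genes 0 of 21 had one and 10 had a blocked GBR. Among all genes with a blocked GBR 16.2% had one, so 10 genes are too few to read this as a lack. Of ANO2 and RP1L1, genes that the study named for their blocked GR response, ANO2 had one, in an intron 279 kb from the TSS (rank 4592, 1 AP-1). ANO2 also had 4 blocked GBR absent from both double depletion lists and 1 shared GBR. In the study, the GBR nearest to the ANO2 TSS lost its call in both double depletions. The lists are small, genes within a list can share a GBR, and no list was tested.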

How the data were processed

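Reads of the 12 ChIP and 6 input libraries were trimmed by the authors, aligned to GRCh38/hg38 (BWA) and cleared of duplicates and mitochondrial reads. Peaks are MACS2 calls on pooled replicates that passed IDR, a test of reproducibility between replicates; tool versions and the IDR threshold are not given in the sources used here. Each deposited list gives a signal value, −log10 p and −log10 q from MACS2 and a display score (from the authors, 10 times the −log10 p), all computed on pooled replicates. Heights were used to rank GBR within a list and to set or describe cutoffs, and were not compared between lists as levels of GR, since depth acts on them and on which weak peaks are called.

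Overlap of 1 bp or more defined the classes, and shares have 95% Wilson intervals. Motifs were counted on both strands in 1-kb and 200-bp windows centered on the summit and in windows 5 kb to either side. Logistic regression of motif presence on class, with GC content and rank of −log10 p as covariates, gave Wald p-values (2-sided). Genes came from GENCODE release 44, with 20033 protein-coding genes, and promoters (300 bases, GRCh38) from RefSeq. Coordinates count from 1. Software was bedtools 2.31.1, samtools 1.23.1 and Python 3.11.15 with statsmodels 0.14.6, pandas 2.3.3, pysam 0.24.0, SciPy 1.17.1, Matplotlib 3.10.9 and NumPy 2.4.6. The overlap, motif search and fit were tested on simulated data.

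The GBR, gene lists and tests were chosen with earlier results of these data known. Named were the 12 strongest GBR in siHic5/siNS, the 6 strongest in siBRM/siHic5, up to 10 called in a single depletion list, 8 nearest to a TSS, the GBR with the most GRE, and genes of 13 lists with their strongest GBR. Sequences are from 5 of the 6 strongest GBR with a GRE near the summit, leaving out chromosome 8. A few items that these rules name, among them a sequence and 1 gene list, are not reported here. Alternatives were other overlap rules, cutoffs, windows, covariates and GRE patterns. ATAC-seq data and lists of differential binding were not used here.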

Additional observations from a re-analysis of the deposited data

How the results depend on the processing

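The number of GBR was 782 to 788 under 3 other overlap rules. With −log10 q of at least 20 in all lists it was 1063, of which 264 were among the 783. It moved to 1350 with a common q cutoff, 314 with siBRM/siHic5 reduced to the size of siCHD9/siHic5 and 54 with the 1000 strongest peaks of each list. Those called in siCHD9/siNS moved from 13 to 7 with the common cutoff and to 3 with −log10 q of at least 20. They were 8 with the reduced list and 6 among the 1000 strongest. Those called in siBRM/siNS, 16 with the lists as deposited, were 1, 0, 16 and 15 in the same order. Within 1 kb of a TSS were 35 GBR and within 50 kb 402. Against blocked GBR absent from both double depletion lists, odds ratios under 1 turned to over 1 without covariates for GRE (1.03), ETS (1.04) and the GC box (1.09), with GC content alone for GRE (1.10), ETS (1.00) and the hexamer AGAACA (1.02), and for GRE with no mismatch (1.06). None of these passed the threshold. In 200-bp windows ETS (0.694) and C/EBP (0.597) passed. With a common q cutoff AP-1 against GBR absent from siBRM/siHic5 only did not pass (0.52). The cause was not tested. The AP-1 contrasts with GBR absent from both (odds ratio 1.30 to 1.46) and with GBR called in both (0.431 to 0.502) kept direction and call in all 6 alternatives run; the alternatives for AP-1 against the 2 classes called in siCHD9/siHic5 were added after seeing the data. No paired analysis was possible because each list was made from pooled replicates, and for the same reason no replicate could be left out.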

Other observations

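Most of the 783 GBR stood alone, with 736 groups when summits within 50 kb were joined. Of these groups 43 held 2 or more, 90 GBR in all. The following were chosen after their values were seen. The largest group was of 4 GBR near GRAMD4 on chromosome 22 (chr22:46604200-46635935), at ranks 1019, 1277, 1742 and 3025 in siHic5/siNS and 1566, 1263, 1849 and 2413 in siBRM/siHic5, with a nearest siCHD9/siHic5 peak 494 to 498 kb away. None of the 4 held AP-1 and 1 held a GRE. A group of 3 near PTGIS, the prostacyclin synthase gene (chr20:49562129-49604834), had ranks of 1798, 4258 and 8447 in siHic5/siNS and 1532, 978 and 2286 in the shorter siBRM/siHic5 list, and the weakest of them lay 0.294 kb from a shared GBR. A group of 3 near SPATA31A5 within 4.38 kb (chr9:60520831-60525209) included 2 that were called in siBRM/siNS. The SEPTIN9 gene held 3 GBR, at ranks 618, 1154 and 2917.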
